A study of Mus musculus with 13 samples.

Results

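STAT proteins are the transcription factors that cytokine receptors switch on in T cells, and SOCS proteins are the feedback inhibitors that restrain those receptors. The transcripts of 9 such genes were followed, chosen by symbol out of 56748 genes in the deposited table. They were Stat3, Stat4, Stat5a, Stat5b and Stat6 among the STAT factors, and Socs1, Socs2, Socs3 and Cish among the feedback genes. All 9 were found, and all 9 passed the filter on low counts that left 14059 genes for testing. The rule that names them uses no measured value, but the members were chosen with earlier results of these data known.

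The samples were 13 RNA-seq libraries of helper T cells from mouse spleen, sorted as TCR+, CD4+ and Thy1.1neg. Eomes-GFP mice report the T-box factor Eomes by green fluorescence, and Eomes-TKO mice carry an alteration of Eomes whose construction the labels do not describe. Every animal also carried Foxp3-Thy1.1, a surface mark on regulatory T cells that the sort excluded. All mice, controls included, received 50 µg of antibody that depletes NK1.1+ cells on days -2 and 5, and Vk12653 multiple myeloma cells on day 0. They then received 20 µg of an agonist antibody to 4-1BB, a costimulatory receptor, or of control IgG on days 10, 13 and 16, and were killed on day 18. Age, sex and strain background were not given in the labels.

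The 5 groups were GFP+ cells (n = 3) and GFP− cells (n = 3) of 4-1BB-treated Eomes-GFP mice, and cells of IgG-treated Eomes-GFP mice (n = 2) not divided by GFP. The other two were Eomes-TKO cells under 4-1BB antibody (n = 2) and under IgG (n = 3). The GFP+ and GFP− libraries shared name prefixes, read here as the same 3 animals, so the 13 libraries were taken to come from 10 animals. Treated Eomes-GFP cells not divided by GFP were not analysed here, and no activation marker was part of the sort. GFP+ cells therefore had no treated, undivided counterpart, and 4-1BB treatment and selection for GFP cannot be told apart in GFP+ cells set against IgG cells.

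Cytokine binding brings receptor-bound Janus kinases together, and these phosphorylate STAT proteins, which then pair, enter the nucleus and bind DNA. In helper T cells Stat4 acts downstream of IL-12, Stat6 downstream of IL-4, Stat3 downstream of IL-6, IL-10 and IL-21, and the near-identical Stat5a and Stat5b downstream of IL-2, IL-7 and IL-15. Cish, Socs1, Socs2 and Socs3 are themselves induced by STAT proteins. Socs1 and Socs3 can block Janus kinase activity directly, whereas Cish and Socs2 act mainly by occupying docking sites on receptors. STAT activity lies in phosphorylation, which RNA-seq does not measure, so every value here is a transcript level.

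Activated STAT dimers bind palindromes of the form TTCNNNGAA, and Stat6 also binds a wider form in which 4 bases of any kind part TTC from GAA. The 3 stretches printed here show the feedback genes whose promoters hold a match and, for contrast, Socs1, which holds none. They come from RefSeq windows of 300 bases on GRCm38.p6, running from 250 bases before a transcript start through 50 bases from it on. Each stretch holds 150 bases, written 5′ to 3′ on the gene's strand, with matches to TTCNNNGAA in capitals. The Cish stretch lies at chr9:107296534-107296683 on the plus strand, the Socs3 stretch at chr11:117969417-117969566 on the minus strand, and the Socs1 stretch at chr16:10785537-10785686 on the minus strand.
Cish: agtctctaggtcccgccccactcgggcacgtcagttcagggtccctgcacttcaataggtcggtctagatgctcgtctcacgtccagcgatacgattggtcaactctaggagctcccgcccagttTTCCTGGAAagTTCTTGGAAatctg
Socs3: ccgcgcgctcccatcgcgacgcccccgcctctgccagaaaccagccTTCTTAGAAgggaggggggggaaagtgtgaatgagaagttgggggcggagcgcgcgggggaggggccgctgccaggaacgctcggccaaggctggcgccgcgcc
Socs1: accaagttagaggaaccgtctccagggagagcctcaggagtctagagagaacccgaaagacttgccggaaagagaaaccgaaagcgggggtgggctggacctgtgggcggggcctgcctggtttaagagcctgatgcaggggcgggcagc

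Cish carried 2 matches, beginning at bases 1 and 12 counted from the transcript start. Socs3 carried 1 match, whose first base lay at position -154 from the start. Windows were found for 8 of the 9 members, 11 windows in all, and none was found for Socs2. TTCNNNGAA, which reads the same on both strands, occurred in windows of 2 members, and the wider form, also its own reverse complement, occurred in 0. Among 32851 windows of the same length, 8.3% held TTCNNNGAA, 6.95% held the wider form and 0.457% held TTCNNNGAA at least 2 times. A match describes letters in the window and is not a measured binding site.

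The libraries held 6080975 to 10881146 estimated counts, and 17127 to 18252 genes had at least 1 count. Eomes, the gene behind the sort, stood at 570 to 706 CPM (counts scaled by TMM to a common library size, as CPM) in GFP+ libraries and at 1.83 to 3.54 CPM in GFP− libraries. It stood at 13.99 to 16.8 CPM under IgG in Eomes-GFP cells and at 1.36 to 8.03 CPM in Eomes-TKO cells. The CD4 T cell list (7 genes) summed to 4870 to 5454 CPM in GFP+ and 3315 to 3469 CPM in GFP− libraries. Tnfrsf17 of plasma cells had 0 counts in every library, Ms4a1 of B cells reached at most 0.313 CPM, Ncr1 of NK cells reached at most 0.104 CPM, and Cd8a at most 3.76 CPM. Other genes of the same lists reached more. The highest library held 13.0 CPM of Klrb1c (NK list), 10.7 CPM of Cd8b1 (CD8 list) and 1.88 CPM of Pax5 (B cell list). Xbp1 of the plasma cell list reached 65.1 CPM, and Trdc of gamma delta T cells 23.4 CPM. Small numbers of such cells are therefore not excluded. Foxp3 lay between 0.393 and 2.66 CPM in every library.

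The sums of several marker lists differed with GFP, each carried by some of its genes. The regulatory T cell list (4 genes) summed to 623 to 727 CPM in GFP+ and 101.1 to 134 CPM in GFP− libraries. Ikzf2 (541 to 621.5 against 47.9 to 85.7 CPM) and Ctla4 (79.3 to 100.4 against 31.9 to 37.1 CPM) were higher in GFP+ libraries. Il2ra (2.36 to 4.32 against 5.78 to 14.9 CPM) and Foxp3 (0.393 to 0.554 against 1.097 to 1.95 CPM) were lower. The myeloid list (8 genes, none at 0 in all libraries of either group) summed to 49.1 to 81.6 and 17.4 to 34.6 CPM, and the plasma cell and myeloma list (6 genes, with Mzb1 also at 0 in GFP+ libraries) to 131 to 230 and 91.1 to 97.0 CPM. That last difference lay in Irf4 (76.4 to 164 against 33.9 to 41.9 CPM), which T cells also express, while Sdc1, Jchain, Mzb1 and Tnfrsf17 stayed at or below 0.554 CPM in both groups. The invariant NKT list (2 genes) summed to 0.524 to 1.61 CPM in GFP+ and 8.04 to 18.8 CPM in GFP− libraries. The NK list (5 genes) holds Eomes itself and summed to 571 to 708 and 3.70 to 5.61 CPM. The part of these cells in the differences of STAT and SOCS genes was not tested. In bulk libraries such as these, fewer cells of a type and less RNA per cell cannot be told apart.

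Between GFP+ and GFP− cells of treated mice, Stat4 was higher and Stat5a, Socs1, Socs2, Socs3 and Cish were lower in GFP+ cells. Thus 6 of 9 members passed the threshold (1 higher, 5 lower; edgeR quasi-likelihood test, Benjamini-Hochberg adjusted p under 0.05). Among all tested genes 37.1% passed, 20.7% as higher and 16.5% as lower. The median log2 fold change of the 9 was -0.47, against 0.02 over all genes. Libraries of both groups did not overlap for 6 of the 9 members, against 51.3% of all genes. With upper-quartile scaling the median of all genes fell by 0.137, and the share of higher genes among those called went from 55.7% to 41.4%.

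**Figure D1:**
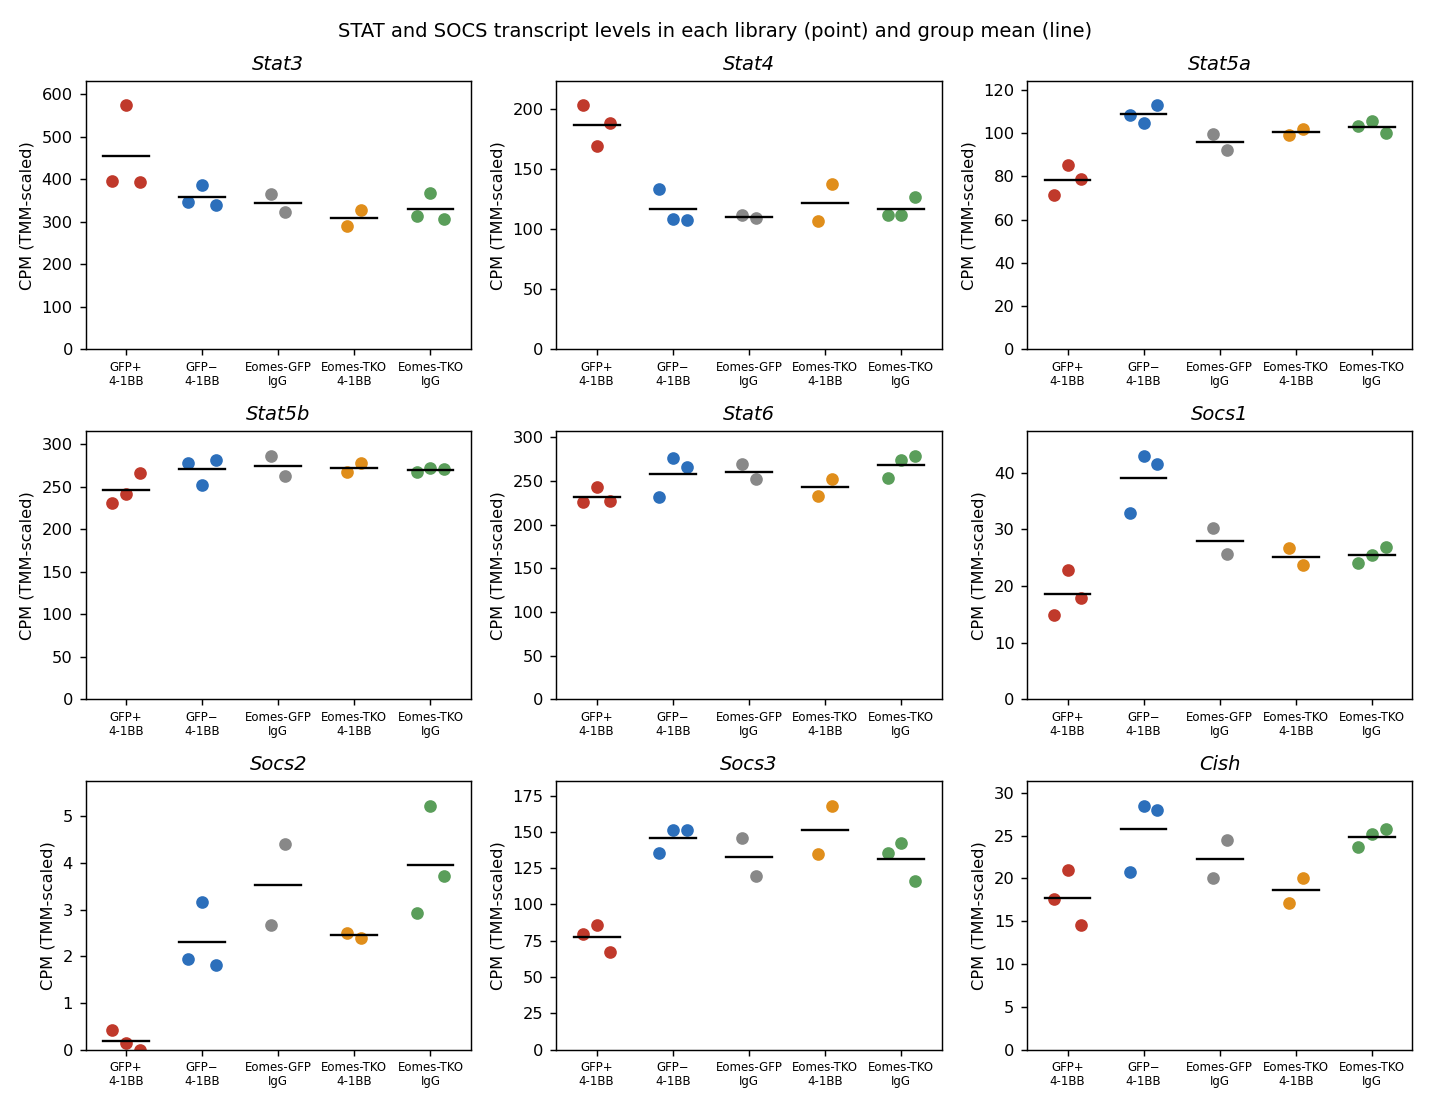
Transcript level of each member (vertical axis, TMM-scaled CPM, linear from 0) in each of the 13 libraries (points) with the group mean (line), by group on the horizontal axis. GFP+ libraries sit above all others for Stat3 and Stat4 and below all others for Stat5a, Socs1, Socs2 and Socs3, while Stat5b, Stat6 and Cish overlap between GFP+ and GFP− libraries. The share of all genes that separate GFP+ from all other libraries is not given here.

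Stat4, the transducer of IL-12 signals, stood at 203, 169 and 188.5 CPM in GFP+ libraries and at 133, 108 and 108 CPM in GFP− libraries. All 3 GFP+ libraries lay above every one of the 10 other libraries. How many of all genes show such a separation from all 10 is not given, here or for the members below. The group means were 187 ± 16.8 and 117 ± 14.7 CPM (SD, n = 3 each). The log2 fold change was 0.68 (SE 0.12, adjusted p = 0.000388 by edgeR).

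Stat3, which carries IL-6, IL-10 and IL-21 signals, stood at 396, 574 and 394.5 CPM in GFP+ and at 346, 388 and 339 CPM in GFP− libraries. The lowest GFP+ library was above the highest GFP− library, and replicate 2 was the highest of its group in both. The log2 fold change of 0.35 (SE 0.14) missed the threshold (adjusted p = 0.0619 by edgeR). Blocking on the animal gave 0.33, which passed (adjusted p = 0.0345), and without GFP+ replicate 1 it was 0.41 and passed (adjusted p = 0.0478). Over all leave-one-out fits the adjusted p ran from 0.0478 to 0.467.

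Stat5a, one of the paralogs that carry IL-2 family signals, stood at 71.5, 85.4 and 78.9 CPM in GFP+ and at 108, 105 and 113 CPM in GFP− libraries. GFP+ libraries were below all 10 other libraries. The log2 fold change was -0.47 (SE 0.09, adjusted p = 0.000806 by edgeR). Stat5b stood at 231, 242 and 267 CPM in GFP+ and at 278, 252 and 282 CPM in GFP− libraries, and these ranges overlapped. Its log2 fold change of -0.14 (SE 0.09) did not pass (adjusted p = 0.245).

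Stat5a and Stat5b share sequence, and their estimated counts were not whole in 13 of 13 libraries, to within 0.01 counts. Their sum was whole in all 13, so reads matching both genes had been divided between them by estimation. The sum does not depend on that division. It was 325 ± 21.7 CPM in GFP+ and 379 ± 20.0 CPM in GFP− libraries (SD, n = 3 each), with ranges of 302 to 346 and 357 to 395 CPM that did not overlap. Stat5a made up 22.8% to 26.1% of the sum in GFP+ and 28.0% to 29.4% in GFP− libraries. The division makes the separate values of each paralog less certain than the sum.

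Stat6, the IL-4 transducer, stood at 225.5, 243 and 227 CPM in GFP+ and at 231, 276 and 265.5 CPM in GFP− libraries. The ranges overlapped, and the log2 fold change of -0.15 (SE 0.09) did not pass (adjusted p = 0.208 by edgeR). Under upper-quartile scaling Stat5b (-0.27, adjusted p = 0.0242) and Stat6 (-0.29, adjusted p = 0.0138) passed as lower in GFP+ cells.

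Socs1, which inhibits Janus kinases downstream of interferons and IL-2 family cytokines, stood at 14.8, 22.8 and 17.9 CPM in GFP+ and at 32.9, 43.01 and 41.5 CPM in GFP− libraries. The highest GFP+ library was below the lowest of all others. The log2 fold change was -1.08 (SE 0.16, adjusted p = 0.000119 by edgeR). Socs3, which restrains receptors of the IL-6 family, stood at 79.8, 85.6 and 67.2 CPM in GFP+ and at 135, 151 and 151.5 CPM in GFP− libraries. Here too GFP+ libraries lay below all 10 others, and the log2 fold change was -0.92 (SE 0.13, adjusted p = 4.91e-05).

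Socs2, an inhibitor best known from growth hormone signalling, was scarce everywhere. GFP+ libraries held 3, 1 and 0 counts (0.416, 0.131 and 0 CPM), and GFP− libraries held 16, 26 and 20 counts (1.95, 3.17 and 1.81 CPM). No GFP+ library had more than 3 counts, and no other library had fewer than 16. Pooled, 4 counts against 62 made the GFP+ level 7.34% of the GFP− level after scaling, with an exact 95% interval of 1.94% to 19.8% that covers counting error only. That is 13.6-fold lower (5.06 to 51.6). The fitted log2 fold change of -3.66 (SE 0.65, adjusted p = 0.000484 by edgeR) depends on how such low counts are smoothed, and it ranged from -4.995 to -3.05 as single libraries were left out.

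Cish, which occupies IL-2 receptor docking sites, stood at 17.6, 20.95 and 14.5 CPM in GFP+ and at 20.7, 28.5 and 28.0 CPM in GFP− libraries. The ranges overlapped by GFP+ replicate 2 and GFP− replicate 1, which came from different animals. The log2 fold change was -0.55 (SE 0.17, adjusted p = 0.0203 by edgeR). The call was lost without GFP+ replicate 3 (-0.45, adjusted p = 0.0721), GFP− replicate 2 (-0.47, adjusted p = 0.0822) or GFP− replicate 3 (-0.48, adjusted p = 0.0805).

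Within animals the direction was uniform for each member. Stat3 and Stat4 were higher in the GFP+ library of 3 of 3 animals, and the other 7 members were lower in 3 of 3, including those that did not pass the test. Among all tested genes 66.5% had 1 sign in all 3 animals, 35.1% higher and 31.4% lower. The GFP+ level of Socs1 was 45.0%, 53.0% and 43.3% of the GFP− level of the same animal, and that of Socs3 was 59%, 56.6% and 44.3%. For Cish the values were 84.9%, 73.5% and 51.8%, a wider spread. Stat4 reached 152%, 157% and 175%.

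**Figure D2:**
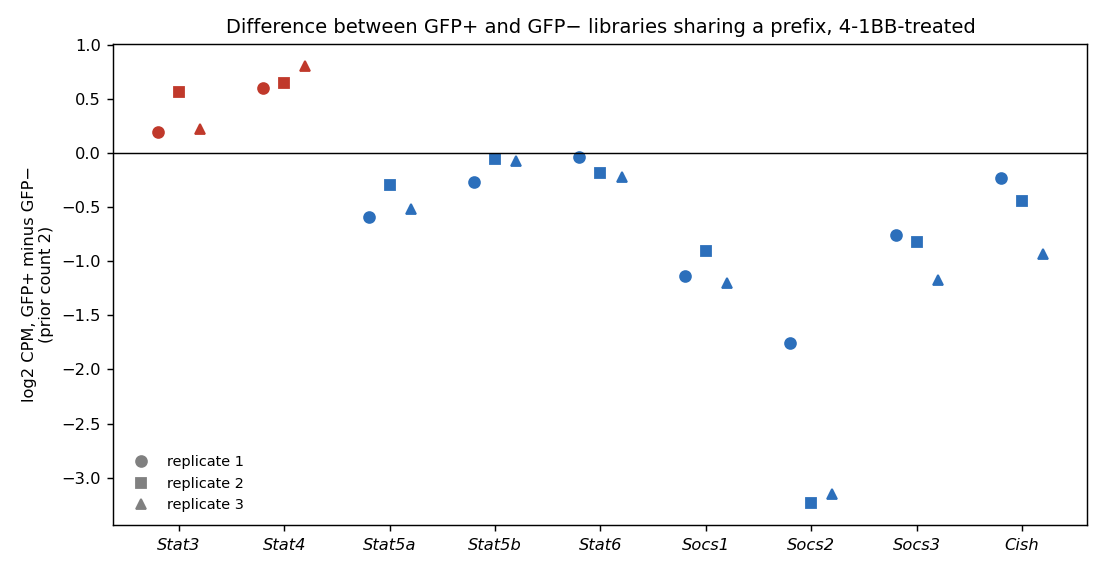
Difference in log2 CPM (vertical axis, prior count 2) between the GFP+ and GFP− library that share a prefix, for each member on the horizontal axis, with 1 symbol per animal (replicates 1 to 3), red above 0 and blue below. Every animal lies above 0 for Stat3 and Stat4 and below 0 for the other 7 members, although Stat5b and Stat6 come within 0.06 and 0.04 of 0.

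The balance between related members was compared within each library for 5 pairs. The log2 ratio of Stat4 to Stat6 was -0.31 ± 0.19 in GFP+ and -1.15 ± 0.31 in GFP− libraries (SD, n = 3 each), a difference of 0.83 (exact permutation p = 0.1, two-sided, the smallest that 3 against 3 allows; adjusted over 5 pairs 0.167). The log2 ratio of Stat5a to Stat5b was -1.65 ± 0.13 and -1.31 ± 0.05, a difference of -0.34 (exact p = 0.1, adjusted 0.167). Socs2 relative to Cish, taken on log2(CPM + 1) because 1 library had 0 counts, differed by -0.96 (exact p = 0.1, adjusted 0.167). For these 3 pairs the groups were fully separated, but this test cannot reach 0.05. It treated libraries as independent and ignored which of them came from the same animal. The ratio of Stat3 to Stat4 differed by -0.36 (exact p = 0.3, adjusted 0.375) and that of Socs1 to Socs3 by -0.17 (exact p = 0.5), so for these the libraries overlapped.

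Levels of different genes were compared per kilobase of merged exons, with lengths from GENCODE M21 on GRCm38, while the reads were placed on GRCm39. In GFP− cells the order ran from Stat6 (58.5 ± 5.33 CPM per kb, SD) through Socs3 (50.5 ± 3.20), Stat5b (48.8 ± 2.96), Stat3 (37.6 ± 2.75), Stat4 (30.1 ± 3.79), Stat5a (15.2 ± 0.563), Socs1 (13.5 ± 1.87) and Cish (4.01 ± 0.678) to Socs2 (0.242 ± 0.0784). The SD ranges of Stat6 and Socs3, of Socs3 and Stat5b, and of Stat5a and Socs1 overlapped, and those of the other neighbours did not. In GFP+ cells Stat6 (52.7 ± 2.21), Stat4 (48.2 ± 4.34), Stat3 (47.8 ± 10.8) and Stat5b (44.5 ± 3.33) formed an upper group in which neighbours overlapped. Socs3 followed at 26.8 ± 3.27, then Stat5a at 11.0 ± 0.972, Socs1 at 6.37 ± 1.38, Cish at 2.75 ± 0.502 and Socs2 at 0.0191 ± 0.0223. On these lengths Socs3 stood above Stat3 and Stat4 in GFP− cells and below both in GFP+ cells. Merged exons join all annotated exons of a gene (9527 bases for Stat3, 2891 for Socs3), and the transcripts present may be shorter. The order between genes therefore depends on the length chosen.

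The remaining groups gave similar orders per kilobase. Stat6 had the highest mean, at 59.2 ± 2.7 in IgG-treated Eomes-GFP cells, 55.1 ± 3.06 in treated Eomes-TKO cells and 61.0 ± 3.02 in Eomes-TKO cells under IgG. In treated Eomes-TKO cells the SD range of Socs3 (52.4 ± 8.11, n = 2) overlapped that of Stat6. Socs2 was lowest in each, at 0.371 ± 0.129, 0.257 ± 0.00743 and 0.415 ± 0.123. Stat4 lay between 28.5 and 31.5 in the 4 groups other than GFP+. Socs1, by contrast, was at 13.5 in GFP− cells and between 8.66 and 9.62 in the 3 groups of IgG-treated or Eomes-TKO cells.

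Some members overlap other genes on GRCm38, and whether counting used strand was not given in the sources used here. Stat5b, Stat5a and Stat3 are consecutive protein-coding genes on chromosome 11, where Stat3 and Stat5a share 72 bases on opposite strands. Stat6 on chromosome 10 shares 40 bases with Nab2. Stat4 on chromosome 1 overlaps Gm28177 on the same strand, and its counts were not whole in 13 of 13 libraries. Cish on chromosome 9 overlaps Gm17040 and Gm17041 on the opposite strand. Reads in these overlaps cannot be assigned with certainty.

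Against cells of IgG-treated Eomes-GFP mice, GFP+ cells held more Stat4 and less Stat5a, Socs1, Socs2 and Socs3. Both comparisons share the GFP+ libraries, so they are not independent. Here 5 of 9 members passed (1 higher, 4 lower), against 34.2% of all genes, 18.8% as higher and 15.4% as lower. The members' median log2 fold change was -0.29, against 0.00 over all genes, and libraries did not overlap for 7 members, against 57.1% of all genes. With upper-quartile scaling the all-gene median fell by 0.138, and the share of higher genes among those called went from 54.9% to 41.9%. Under that scaling 8 members passed, against 36.1% of all genes.

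In the 2 IgG libraries Stat4 stood at 112 and 109 CPM, giving a log2 fold change of 0.76 (SE 0.13, adjusted p = 0.000487 by edgeR). Socs3 stood at 146 and 120 CPM, a log2 fold change of -0.78 (SE 0.14, adjusted p = 0.000482). Socs2 held 21 and 45 counts (2.67 and 4.41 CPM), so that the 4 GFP+ counts made up 4.53% of that level (exact 95% interval 1.20% to 12.2%), with a fitted log2 fold change of -4.29 (SE 0.66, adjusted p = 0.000152). For these 3 genes GFP+ libraries lay wholly outside the IgG libraries, and each call held whichever single library was left out.

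Socs1 stood at 30.3 and 25.7 CPM under IgG, a log2 fold change of -0.59 (SE 0.18, adjusted p = 0.0196 by edgeR). That call was lost without GFP+ replicate 1 (-0.48, adjusted p = 0.0591) or Eomes-GFP IgG replicate 1 (-0.50, adjusted p = 0.141). Stat5a stood at 99.6 and 92.4 CPM, a log2 fold change of -0.29 (SE 0.10, adjusted p = 0.0352). It was lost without GFP+ replicate 1 (adjusted p = 0.0841), GFP+ replicate 3 (0.0503), Eomes-GFP IgG replicate 1 (0.173) or Eomes-GFP IgG replicate 2 (0.0751). For both genes the libraries nevertheless did not overlap. Fitted on these groups alone, Socs1 (adjusted p = 0.0526) and Stat5a (0.0895) also missed.

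Stat3 stood at 365 and 322 CPM under IgG, a log2 fold change of 0.40 (SE 0.16) that missed the threshold (adjusted p = 0.058 by edgeR). Blocking on the animal gave 0.38, which passed (adjusted p = 0.0298), as it did without GFP+ replicate 1 (0.47, adjusted p = 0.0414) or GFP+ replicate 3 (0.47, adjusted p = 0.0448). Stat5b (287 and 262 CPM, -0.16, adjusted p = 0.24), Stat6 (269 and 252 CPM, -0.17, adjusted p = 0.219) and Cish (20.1 and 24.5 CPM, -0.34, adjusted p = 0.188) did not pass. Only Cish and Stat5b overlapped between these groups.

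GFP− cells from treated mice were compared with the same IgG cells, and 0 of 9 members passed, against 0.761% of all genes (107 genes). At an unadjusted p under 0.05 there was 1 member, Socs1, against 8.76% of all genes, and DESeq2 and limma-voom also called 0. Socs1 stood at 32.9 to 43.01 CPM in GFP− and at 30.3 and 25.7 CPM in IgG libraries, without overlap, and its log2 fold change was 0.49 (SE 0.18, adjusted p = 0.352 by edgeR). Stat5a, at 105 to 113 against 92.4 and 99.6 CPM, also did not overlap (0.18, SE 0.10, adjusted p = 0.686). These 2 genes without overlap compare with 30% of all genes. The remaining members differed by -0.63 (Socs2, SE 0.48) to 0.21 (Cish, SE 0.19), and the members' median was 0.08.

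Under control IgG, Eomes-TKO cells were set against Eomes-GFP cells. No member passed: 0 of 9, against 0.0142% of all genes (2 genes), with 0 members at an unadjusted p under 0.05 (3.06% of all genes) and 0 by DESeq2 or limma-voom. The log2 differences ran from -0.13 (Socs1, SE 0.18) to 0.15 (Cish, SE 0.19, and Socs2, SE 0.47), and every adjusted p was 1. Stat4, for example, stood at 112, 112 and 126.4 CPM in Eomes-TKO and at 112 and 109 CPM in Eomes-GFP libraries. Socs3 stood at 135, 142 and 116 CPM against 146 and 120 CPM. Of the 9 members 1 did not overlap, Stat5a at 100 to 106 against 92.4 and 99.6 CPM, compared with 18.3% of all genes. The test's precision is set by 2 and 3 libraries, so these values do not show that the levels were equal.

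Within Eomes-TKO mice, 4-1BB antibody was compared with IgG. Again 0 of 9 members passed, against 0.0427% of all genes (6 genes), with 1 member, Cish, at an unadjusted p under 0.05 (3.6% of all genes) and 0 called by DESeq2 or limma-voom. Cish stood at 17.2 and 20.0 CPM under 4-1BB antibody and at 23.7, 25.2 and 25.8 CPM under IgG, a log2 fold change of -0.41 (SE 0.19, adjusted p = 1 by edgeR). Socs2, at 2.499 and 2.40 against 2.92, 5.23 and 3.72 CPM, gave -0.69 (SE 0.49). Stat6, at 233 and 252 against 254, 273 and 279 CPM, gave -0.15 (SE 0.10). These 3 were the members without overlap, compared with 15.9% of all genes, and Socs3 gave the largest positive value, 0.21 (SE 0.14).

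The treated Eomes-TKO cells were then set beside both treated Eomes-GFP populations. Against GFP− cells 0 of 9 members passed, against 0.0427% of all genes, with 2 at an unadjusted p under 0.05 (6.97% of all genes) and 0 by DESeq2 or limma-voom. Those 2 were Socs1, at 26.7 and 23.7 against 32.9 to 43.01 CPM (-0.64, SE 0.18, adjusted p = 0.427 by edgeR), and Cish, at 17.2 and 20.0 against 20.7 to 28.5 CPM (-0.47, SE 0.19, adjusted p = 0.668). Together with Stat3 and Stat5a they made 4 members without overlap, all lower in Eomes-TKO cells, compared with 22.3% of all genes, 10.8% as lower.

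Against GFP+ cells, 5 of 9 members passed (3 higher, 2 lower), against 34.6% of all genes, 15.7% as higher and 18.8% as lower. Stat5a (0.36, SE 0.10, adjusted p = 0.0117 by edgeR), Socs2 (3.75, SE 0.69, adjusted p = 0.000719) and Socs3 (0.97, SE 0.14, adjusted p = 7.48e-05) were higher in Eomes-TKO cells. Stat3 (-0.56, SE 0.16, adjusted p = 0.0126) and Stat4 (-0.61, SE 0.13, adjusted p = 0.00254) were lower. Stat3 stood at 291 and 327 CPM in Eomes-TKO libraries, Stat4 at 106 and 138, Stat5a at 99.0 and 102, and Socs3 at 135 and 168 CPM. None of these overlapped the GFP+ libraries listed above. Socs2 held 16 and 23 counts there, and the GFP+ level was 6.79% of theirs (exact 95% interval 1.76% to 18.8%).

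In that comparison 7 members did not overlap, against 53% of all genes, and the members' median was 0.15, against 0.00 over all genes. Socs1 (0.44, SE 0.18, adjusted p = 0.0778 by edgeR) missed, and passed when blocked on the animal (0.46, adjusted p = 0.0278) or without GFP+ replicate 2 (0.65, adjusted p = 0.0135). Stat3 was lost without GFP+ replicate 2 (-0.32, adjusted p = 0.055) or Eomes-TKO 4-1BB replicate 1 (-0.44, adjusted p = 0.138). Stat4 was lost without Eomes-TKO 4-1BB replicate 1 (-0.41, adjusted p = 0.0638), and Stat5a without Eomes-TKO 4-1BB replicate 2 (0.33, adjusted p = 0.0662). Cish differed by 0.08 (SE 0.19, adjusted p = 0.785). Upper-quartile scaling raised the all-gene median by 0.162, and the share of higher genes among those called went from 45.6% to 60.8%. Under that scaling 7 members passed, against 36.6% of all genes. Stat5b (0.31, adjusted p = 0.0237 by edgeR) and Socs1 (0.61, adjusted p = 0.0129) were gained.

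**Figure D3:**
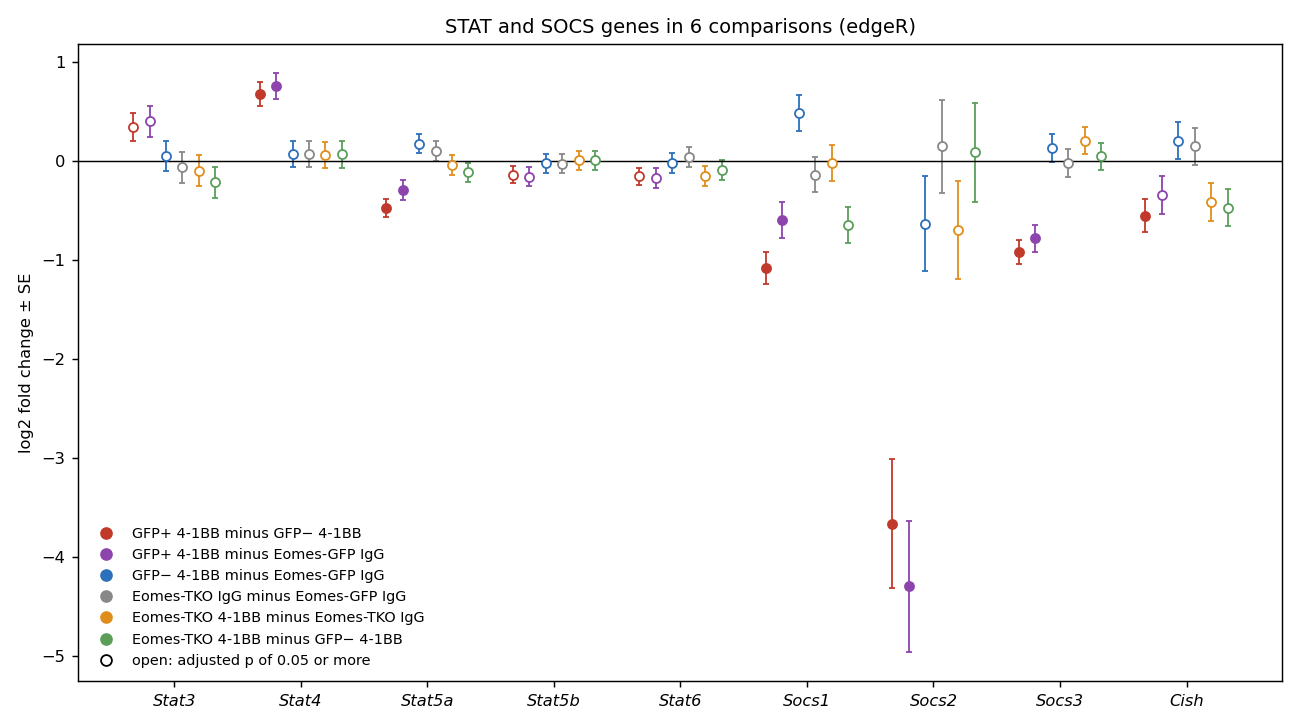
Log2 fold change of each member (vertical axis) from the edgeR fit, in 6 comparisons told apart by colour. Bars show an approximate standard error, derived from the log2 fold change and the F statistic. Filled symbols mark members that passed an adjusted p of 0.05 and open ones the rest. Members passed in the 2 comparisons with GFP+ cells shown (6 and 5 of 9) and in 0 of the other 4.

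Whether the 4-1BB difference within Eomes-TKO mice differed from that between GFP− and IgG cells was tested as a difference of differences. No member passed (0 of 9, against 0% of all genes), 1 had an unadjusted p under 0.05 (2.96% of all genes), and DESeq2 and limma-voom called 0. That member was Cish, at -0.62 (SE 0.27, adjusted p = 1 by edgeR), followed by Socs1 at -0.50 (SE 0.25, unadjusted p = 0.0663). All cells were sorted as CD4+, but GFP− cells were further divided by GFP and Eomes-TKO cells were not, so this contrast compares unlike populations.

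Spread over all 13 libraries ranked the members by how much they varied. The root mean square deviation of log2 CPM was 0.09 for Stat5b and 0.11 for Stat6, then 0.18 for Stat5a, 0.24 for Stat3, 0.28 for Cish and 0.31 for Stat4. It was 0.39 for Socs3, 0.40 for Socs1 and 1.38 for Socs2. Of the feedback genes only Cish varied less than Stat4.

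For each member the 3 genes of closest pattern were sought among 8529 candidates by the root mean square difference of centred log2 CPM over the 13 libraries. This is a description over libraries that share groups and animals. For Socs1 these were Pim3 (0.133), Pim1 (0.169) and Nfkbia (0.172), against a spread of 0.404 for Socs1 itself. Pim1 and Pim3 encode survival kinases, and Nfkbia encodes an NF-κB inhibitor. For Stat3 they were Notch1 (0.0489), Sec61a1 (0.0859) and Emc3 (0.0865), and for Stat4 they were Pla2g6 (0.0894), Arhgef3 (0.107) and Ppp1r12a (0.112).

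For Socs3 the closest were Mthfd1 (0.114) and the ribosomal protein genes Rpl10 (0.115) and Rps16 (0.127). Stat5a was closest to Klhl18 (0.0676), Pnrc1 (0.0705) and Cnbp (0.0713). Cish was closest to St3gal2 (0.148), Mtmr4 (0.157) and Inf2 (0.16). Socs2 was closest to Acsl3 (0.334), Raver2 (0.353) and Tlr7 (0.383), against its own spread of 1.38. Candidates needed a mean log2 CPM of at least 3, so genes as scarce as Socs2 were not among them. Stat5b (Yme1l1, Msl2 and Qrich1) and Stat6 (Oxsr1 and Kdm2a) varied little in the first place, so closeness to them says little.

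Other genes of the pathway were followed in fixed lists, from the cytokines inward, in GFP+ against GFP− cells. Of 17 cytokines that signal through STATs only 6 passed the filter on low counts, so no count of them is read as a result. Il10 passed it through GFP+ cells alone, with 19.5, 32.3 and 19.8 CPM in GFP+ libraries and at most 1.04 CPM in any other library. Ifng (2.702, SE 0.23, adjusted p = 5.98e-07 by edgeR) and Il21 (2.02, SE 0.71, adjusted p = 0.0491) were higher. Osm, an IL-6 family cytokine, was lower (-0.94, SE 0.17, adjusted p = 0.000494). Under upper-quartile scaling, and under RLE scaling, Il21 missed the threshold.

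Of 20 receptor genes 19 were tested, and 6 were higher and 8 lower (median -0.18). Among all tested genes 20.7% passed as higher and 16.5% as lower. The largest increases were of Il10ra (4.13, SE 0.18), the IL-10 receptor chain, Il2rb (2.38, SE 0.22), shared by IL-2 and IL-15, Il12rb1 (2.14, SE 0.23), shared by IL-12 and IL-23, and Il15ra (1.46, SE 0.16). The largest decreases were of Il9r (-5.61, SE 0.47), Ifngr2 (-4.06, SE 0.21), the signalling chain of the interferon-γ receptor, Il6ra (-3.41, SE 0.14) and Il7r (-3.23, SE 0.28). Il9r, like Socs2 among the members, passed the filter on low counts through the 4 groups other than GFP+. Receptors of one transducer thus moved in both directions. Among those placed upstream of Stat3, Il10ra was higher and Il6ra lower, and among those upstream of Stat5a and Stat5b, Il2rb was higher and Il7r lower. Upstream of Stat4, Il12rb1 was higher and Il12rb2, the other IL-12 receptor chain, was lower (-2.63, SE 0.515, adjusted p = 0.00103 by edgeR). Il12rb2 was scarce, with means of 0.731 CPM in GFP+ and 4.54 CPM in GFP− libraries. Like Il9r, it passed the filter through the 4 groups other than GFP+.

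The Janus kinases, which bind the receptors and phosphorylate STAT proteins, were all higher, 4 of 4, against 20.7% of all genes. Tyk2 was higher by 0.92 (SE 0.13, adjusted p = 4.54e-05 by edgeR), Jak3 by 0.67 (SE 0.16), Jak2 by 0.46 (SE 0.12) and Jak1 by 0.41 (SE 0.09). Stat2, which acts in the interferon pathway, differed by -0.04 (SE 0.11).

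Among 15 other SOCS genes and negative regulators 7 were higher and 5 lower (median 0.30), against 20.7% and 16.5% of all genes. Unlike the 4 feedback genes followed here, Socs5 (0.63, SE 0.16) and Socs7 (0.51, SE 0.13) were higher, as were Pias3 (1.40, SE 0.17), an inhibitor of Stat3, and the phosphatase gene Ptpn11 (0.96, SE 0.12). Usp18 (-1.14, SE 0.21), which restrains interferon receptors, the phosphatase gene Ptpn6 (-1.10, SE 0.19), the adaptor gene Sh2b3 (-0.81, SE 0.12) and Pias2 (-0.44, SE 0.10) were lower.

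Of 18 textbook STAT targets 5 were higher and 8 lower (median -0.22), against 20.7% and 16.5% of all genes. Gzmb (5.35, SE 0.43), which encodes a killing protease, and the transcription factor genes Prdm1 (3.50, SE 0.19), Maf (2.499, SE 0.27) and Irf8 (2.28, SE 0.20) were higher. Il18r1 (-2.46, SE 0.14), Lta (-2.09, SE 0.23) and Myc (-1.91, SE 0.23) were lower, and so was Pim1 (-1.14, SE 0.14), named above beside Socs1. Under upper-quartile scaling no gene of the lists that had passed changed sign. The split then became 5 and 5 among negative regulators, 6 and 10 among receptors and 5 and 10 among targets. With that scaling 37.6% of all genes passed. Over all called genes the balance also moved towards lower, with 41.4% of them higher, against 55.7% under TMM.

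**Figure D4:**
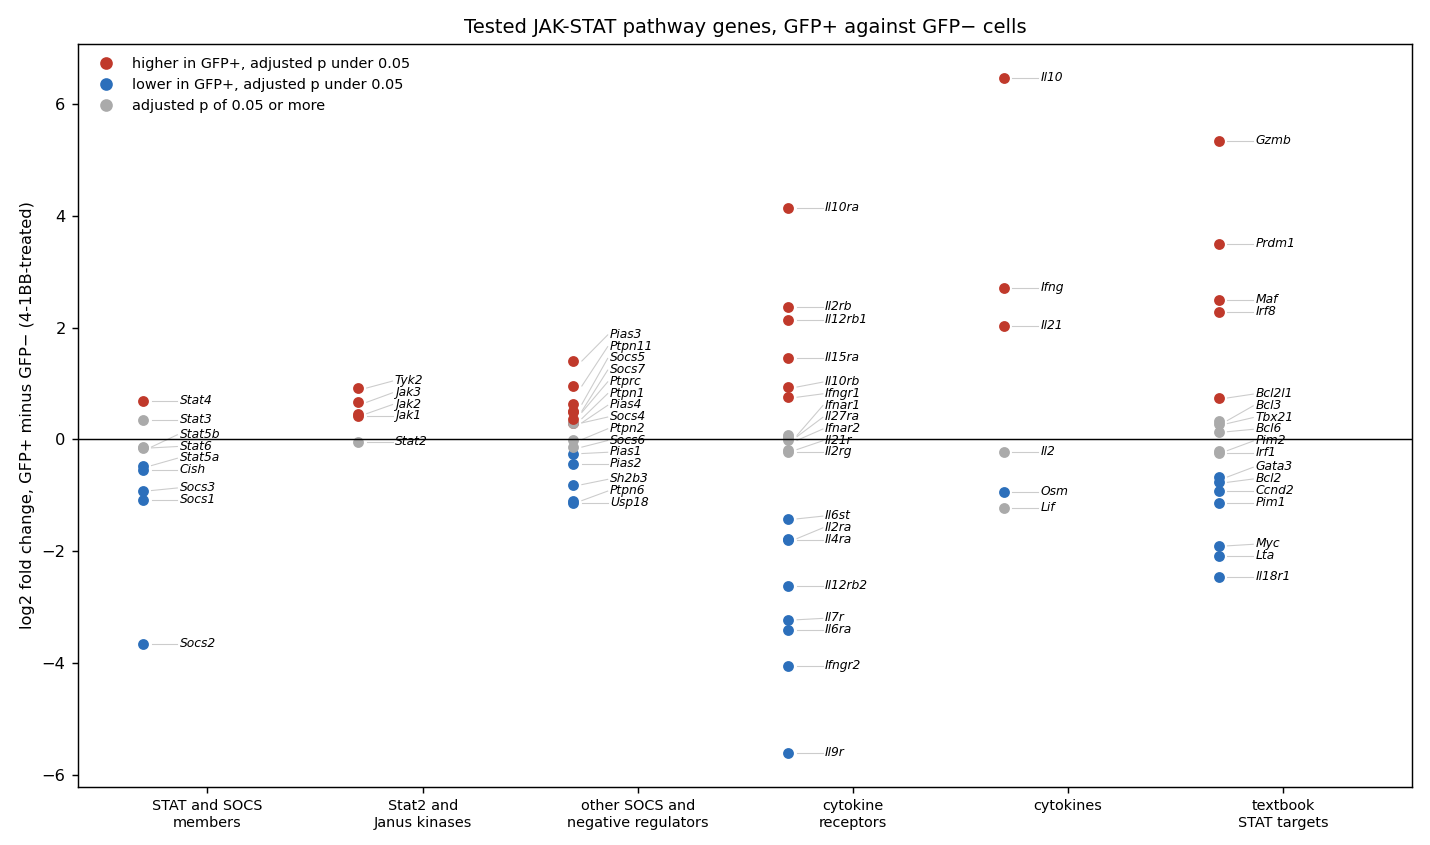
Log2 fold change (GFP+ minus GFP−, edgeR) of the tested genes reported from the pathway lists and of the 9 members, by list on the horizontal axis, in red (higher) or blue (lower) where the adjusted p was under 0.05 and in grey otherwise. All 4 Janus kinases lie above 0, while receptors and targets spread to both sides, from Il9r at -5.61 to Gzmb at 5.35.

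In GFP− against IgG cells the same lists held 1 gene that passed, while 0.761% of all genes did. That gene was Irf1, which encodes a transcription factor of interferon responses. It stood at 379 ± 5.83 CPM (SD, n = 3) in GFP− and at 236 ± 1.45 CPM (SD, n = 2) in IgG libraries, a log2 fold change of 0.68 (SE 0.12, adjusted p = 0.0232 by edgeR). In Eomes-TKO against Eomes-GFP cells under IgG, in 4-1BB against IgG within Eomes-TKO mice, and in treated Eomes-TKO against GFP− cells, 0 list genes passed. The shares of all genes that passed were 0.0142%, 0.0427% and 0.0427%. In GFP+ against IgG cells, which share the GFP+ libraries, 18.8% of all genes passed as higher and 15.4% as lower. The receptors gave 6 higher and 8 lower there. The negative regulators gave 4 and 5, and the targets 6 and 8. Of the Janus kinases 3 of 4 passed as higher there, Tyk2 (0.97, SE 0.14), Jak3 (0.74, SE 0.19) and Jak2 (0.51, SE 0.14), and Jak1 missed (0.28, SE 0.11, adjusted p = 0.0524 by edgeR).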

How the data were processed

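RNA-seq of 13 sorted CD4+ libraries was used, made from 11 ng of RNA after ribosomal RNA depletion. The authors deposited estimated counts per gene, of which 6.25% to 7.33% of values per library were not whole. The tools named are Salmon 1.5.2, STAR 2.7.10a, Trim Galore 0.6.7 and cutadapt 3.4, with the GRCm39 build, per the submitters' processing notes. Strand and annotation were not given in the sources used here. Of 47 library columns, 13 matched labelled samples and 34 were not used.

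Counts were rounded, filtered (filterByExpr) and scaled by TMM. A single edgeR 4.0.16 quasi-likelihood model (R 4.3.3) covered all 13 libraries in 5 groups with 8 residual degrees of freedom. P-values were adjusted by Benjamini-Hochberg over 14059 genes, with a threshold of 0.05. Log2 fold changes are given with standard errors. The script was tested on simulated data. At these depths 3 counts equal 0.271 to 0.469 CPM, and intervals cover counting error only. P-values rest on the spread between libraries within groups, pooled over the 5 groups and moderated across genes. The main model did not pair GFP+ and GFP− libraries by animal.

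GFP+ and GFP− libraries were paired through the prefix of their names, read as the animal. Deviations from group means correlated at 0.32, 0.11 and 0.06 within pairs and at -0.25 to 0.15 between other libraries. Ratios were log2 of CPM, except for Socs2 to Cish, where a pseudocount of 1 was needed.

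All 9 members were named throughout, with Eomes as the sorted gene. From each pathway list the called genes of largest fold were named, up to 4 per direction, and Il12rb2 was added beside Il12rb1. A few genes that these rules pick are not reported here. For each member the 3 genes of closest pattern were named, leaving out receptor segments and unnamed gene models. The members and lists were chosen with earlier results of these data known. Alternatives covered scaling, filters, DESeq2 1.42.0, limma-voom (limma 3.58.1), blocks, a fold threshold, groups fitted alone and leaving out each library.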

Additional observations from a re-analysis of the deposited data

How the results depend on the processing

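Across 24 alternatives for each of 72 member results, 1682 of 1728 values stayed on the same side of the threshold, 28 lost the call and 18 gained it. Direction was compared only where the main or the alternative fit passed, and 0 of those values reversed. Where neither passed, the sign could change, as for Socs2 in Eomes-TKO against Eomes-GFP cells under IgG (-0.153 to 0.567 without single libraries). In GFP+ against GFP− cells the 6 calls (37.1% of all genes) became 8 with upper-quartile scaling (37.6%) and 3 (Socs1, Socs2 and Socs3) against a fold of 1.5 (15.3%). Without single libraries the calls ranged from 5 to 7, and 4188 to 5437 of all genes passed. In GFP+ against Eomes-GFP IgG cells the 5 calls (34.2%) became 8 with upper-quartile scaling (36.1%), 3 with the groups fitted alone (30%) and 1 (Socs2) against a fold of 1.5 (15.7%). Without single libraries they ranged from 3 (without Eomes-GFP IgG replicate 1, 22.7%) to 5, and 3195 to 5038 of all genes passed. In treated Eomes-TKO against GFP+ cells the 5 calls (34.6%) became 7 with upper-quartile scaling (36.6%), 3 with the groups fitted alone (23.8%) and 2 (Socs2 and Socs3) against a fold of 1.5 (15.3%). Without single libraries they ranged from 3 (without Eomes-TKO 4-1BB replicate 1, 21.8%) to 5, and 3060 to 4991 of all genes passed. The cause was not tested. The other 5 comparisons gave 0 calls among the members under every alternative.

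With the animal as a replicate block Stat3 passed in GFP+ against GFP− cells (0.33, adjusted p = 0.0345) and against IgG cells (0.38, adjusted p = 0.0298), and Socs1 passed in Eomes-TKO against GFP+ cells (0.46, adjusted p = 0.0278). It changed no other call of a member. With the replicate number as block Stat3 gave 0.33 (adjusted p = 0.0296) and 0.44 (adjusted p = 0.0168). Counts over all genes also moved: 5220 genes in GFP+ against GFP− cells ranged from 2146 to 5437, 4809 in GFP+ against IgG cells from 2214 to 5080, and 4859 in Eomes-TKO against GFP+ cells from 2153 to 5146. Where few passed, 107 genes in GFP− against IgG cells ranged from 1 to 521, 2 genes in Eomes-TKO against Eomes-GFP cells from 0 to 112, and 6 genes in 4-1BB against IgG within Eomes-TKO mice from 0 to 258. For Socs2, depth limits precision: no library held more than 53 counts.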
